A study of Mus musculus with 28 samples.

Results

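The leucine-rich-repeat synaptic adhesion genes described here are *Lrrc24*, the Slitrk genes *Slitrk1* to *Slitrk5* and the Lrrtm genes *Lrrtm1* to *Lrrtm4*, taken by symbol from the GENCODE M21 annotation of the mouse genome (GRCm38). They are 10 of the genes listed for these mice. Of the 10 members, 9 were in both count tables and all 9 passed a minimum mean of 10 counts, which 16266 of the 49477 genes shared by the tables reached. *Lrrtm2*, on chromosome 18, was listed for the second batch alone and was compared within that batch.

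RNA was sequenced from amygdala micropunches of 28 adult female C57BL/6J mice, bought at 7 weeks of age, housed singly and studied in 2 batches. The Water Drinking group (4 first-batch and 6 second-batch mice) had water in both tubes throughout. The Acute Drinking group (4 and 5 mice) had water for 27 days and then, on day 28, a single free choice between 20% ethanol and water. The Chronic Drinking group (3 and 6 mice) had that choice every other day over 28 days. All mice were of the same inbred strain and sex. Tissue was taken on day 29, with the alcohol tubes left on the cages of the drinking mice until then, and punches of 1 mm were collected on both sides to include the basolateral and central amygdala, so each library mixes nuclei and cell types. Total counts ranged from 20004380 to 22569562 per mouse. All 10 general neuron markers, all 5 central amygdala markers and all 9 markers of excitatory neurons were detected in every mouse, as were all 8 striatal markers.

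Slitrk and Lrrtm proteins are single-pass membrane proteins of neurons whose extracellular leucine-rich repeats bind partners on the facing axon. Slitrk proteins bind receptor phosphatases, and Lrrtm proteins bind neurexins and, for *Lrrtm4*, glypicans. Both families are known for inducing presynaptic terminals. *Lrrc24* encodes a membrane protein with leucine-rich repeats and an immunoglobulin domain whose function is less well described.

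The members differ in how cleanly their reads can be told from those of other genes. *Lrrc24* (chr15:76715276-76722173, minus strand) has its whole last exon, chr15:76715276-76716306, inside the long last exon of an *Lrrc14* transcript, which is read from the opposite strand. That exon holds 932 of the 1563 coding bases of *Lrrc24* (59.6%), and 45.7% of the 31-base stretches of *Lrrc24* also occur, reversed, in *Lrrc14*. The first exon also shares 48 bases with *C030006K11Rik* on the same strand. Whether the libraries kept strand is not given in the sources used here, and without strand the reads of *Lrrc24* and *Lrrc14* in the shared stretch cannot be told apart. The sequence below, from the GENCODE M21 transcripts, is shown because it marks where the stretch unique to *Lrrc24* ends: lower case is the end of the exon before the last, and capitals are the start of the last exon, which *Lrrc14* covers.
Lrrc24: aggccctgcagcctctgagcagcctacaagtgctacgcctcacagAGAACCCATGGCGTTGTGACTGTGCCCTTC

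**Figure D1:**
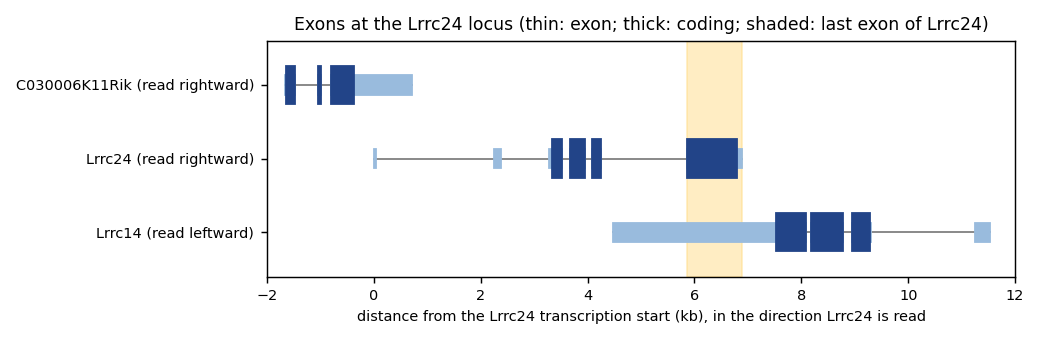
Exons of *Lrrc24*, *Lrrc14* and *C030006K11Rik*, as distance in kb from the *Lrrc24* transcription start, with coding parts drawn thick. The shaded last exon of *Lrrc24*, with 932 coding bases, lies in the untranslated end of *Lrrc14*.

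Among the other members, 25.1% of the exonic bases of *Lrrtm4* overlap the antisense gene *Gm4409*, which had between 0 and 51 counts per mouse. *Lrrtm1* and *Lrrtm3* lie wholly within *Ctnna2* and *Ctnna3*, on the opposite strand, with no shared exonic base, and *Lrrtm2* lies within *Ctnna1* and shares 1.58% of its exonic bases with it. The Slitrk genes share under 1% of their 31-base stretches, on either strand, with any other gene. The counts are per gene and so do not separate isoforms, which matters for *Lrrtm4*, whose transcripts end their coding sequence in different ways. The last 30 coding bases are shown to compare those endings, with the final 12 in capitals. The ending of the *Lrrtm4* transcripts with shorter coding sequence (1554 bases) differs from that of the longest (1773 bases), and each is set beside those of *Lrrtm1* and *Lrrtm3*.
Lrrtm1: caccagcagcctgcgaggGAATGCGAGGTG
Lrrtm4, shorter: accatctctggctccaggGAGTGTGAGGTA
Lrrtm4, longest: cctgccatttatctggagAGAATAACAAAC
Lrrtm3: cgcatcagtgaccataaaCCACAGCTGGCC

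Promoter sequences from RefSeq (GRCm38.p6, 250 bases before to 50 after a start) were found for 7 of the members. These members had 9 promoters among the 32851 in the table. Of 4 motifs searched on both strands, none containing another, the cAMP response element TGACGTCA occurred in 1 of the 9, that of *Slitrk2*, and in 1.79% of all promoters. The GC box GGGCGG occurred in 3 of the 9 and in 35.7% of all, the TATA motif TATAAA in 1 and in 13.6%, and the E-box CAGCTG in 2 and in 16.3%. The cAMP response element lay at chrX:66652962-66652969, which is 38 bases before the start of the shorter of its annotated transcripts. The stretch chrX:66652909-66653009 (plus strand) is shown because *Slitrk2* is one of the members with the lowest p in the comparisons below, with the element in capitals. The match is a description of these letters and says nothing of whether a factor binds there.
Slitrk2: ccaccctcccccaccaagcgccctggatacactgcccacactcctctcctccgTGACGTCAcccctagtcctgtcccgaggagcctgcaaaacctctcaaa

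Levels were compared between genes as CPM (counts scaled to a common library size) per kb of merged exons, within each batch. In the 6 Water mice of the second batch, *Slitrk1* had the highest level at 20.3 ± 0.632 CPM per kb (SD, n = 6), followed by *Lrrtm1* at 19.5 ± 1.65, *Slitrk5* at 18.3 ± 0.559, *Lrrtm2* at 17.6 ± 1.14 and *Lrrtm3* at 16.1 ± 1.09. The ranges of neighbours in this order overlapped down to *Lrrtm3*, and the range of *Lrrtm3* did not overlap that of *Slitrk3*, at 13.7 ± 0.708. *Lrrc24* followed at 13.2 ± 0.867, with a range that overlapped that of *Slitrk3*. A gap of 2.02-fold separated *Lrrc24* from *Slitrk4* at 6.51 ± 0.479, whose range overlapped that of *Lrrtm4* at 6.10 ± 0.234, and *Slitrk2* was lowest at 4.77 ± 0.328. In the first batch the order began with *Lrrtm1* and *Slitrk1*, with overlapping ranges, and *Slitrk2* was again lowest at 4.76 ± 0.356 (n = 4). *Lrrc24* differed most between batches, at 9.56 ± 0.406 CPM per kb in the first. *Lrrtm4* depended most on the length used and stood at 8.46 CPM per kb of its longest transcript in the second batch, above *Slitrk4* at 6.70.

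**Figure D2:**
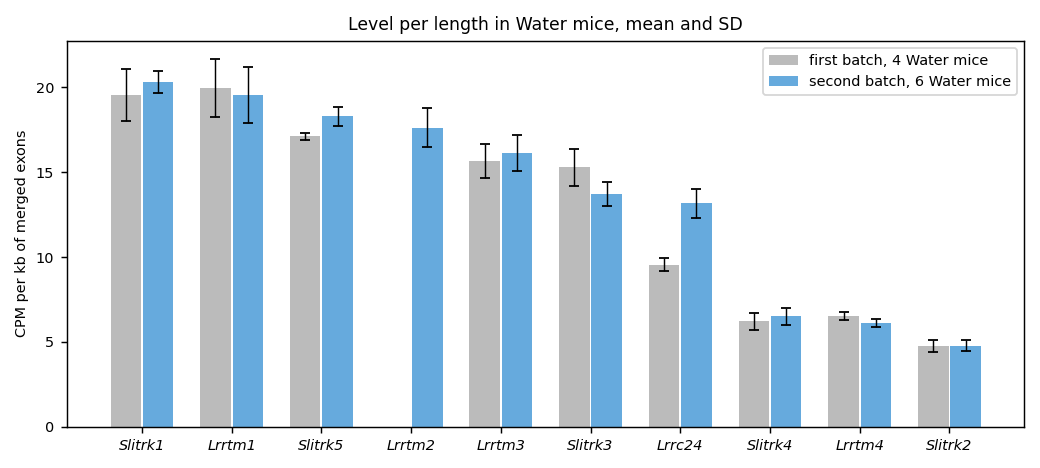
Mean level in Water mice, in CPM per kb of merged exons, with SD, for each batch (4 and 6 mice). *Slitrk1* and *Lrrtm1* are highest, *Slitrk2* is lowest at 4.77 in the second batch, and *Lrrtm2* has no bar in the first batch.

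Drinking groups were compared over the 28 mice with edgeR's quasi-likelihood test, batch as a covariate, and Benjamini-Hochberg adjustment over all genes tested. A gene is called at an adjusted p under 0.05. Values of single mice are CPM with the difference between batches removed. No member was called in any of the 3 comparisons. The background was low too. The test called 0% of all genes in Acute versus Water, 0.0184% (3 genes) in Chronic versus Water and 0% in Chronic versus Acute. At an unadjusted p under 0.05 there were 1 of 9 members in Acute versus Water, beside 9.52% of all genes (1549), 5 of 9 in Chronic versus Water, beside 10.5% (1702), and 3 of 9 in Chronic versus Acute, beside 4.44% (723). DESeq2 with batch as a covariate called 0, 1 and 0 members in these comparisons, beside 0.0965%, 0.437% and 0% of the genes to which it gave an adjusted p. The study's route of ComBat-seq followed by DESeq2 called 1, 2 and 0 members, beside 0.234%, 1.05% and 0%. The study had already named *Lrrc24* and *Slitrk2* as differentially expressed in these same mice. Both are among the members counted here, so these counts depend in part on how the members were chosen. The comparisons with Water share the same Water mice, so they are not independent of each other. In bulk tissue, fewer cells of a type and less RNA per cell cannot be told apart.

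**Figure D3:**
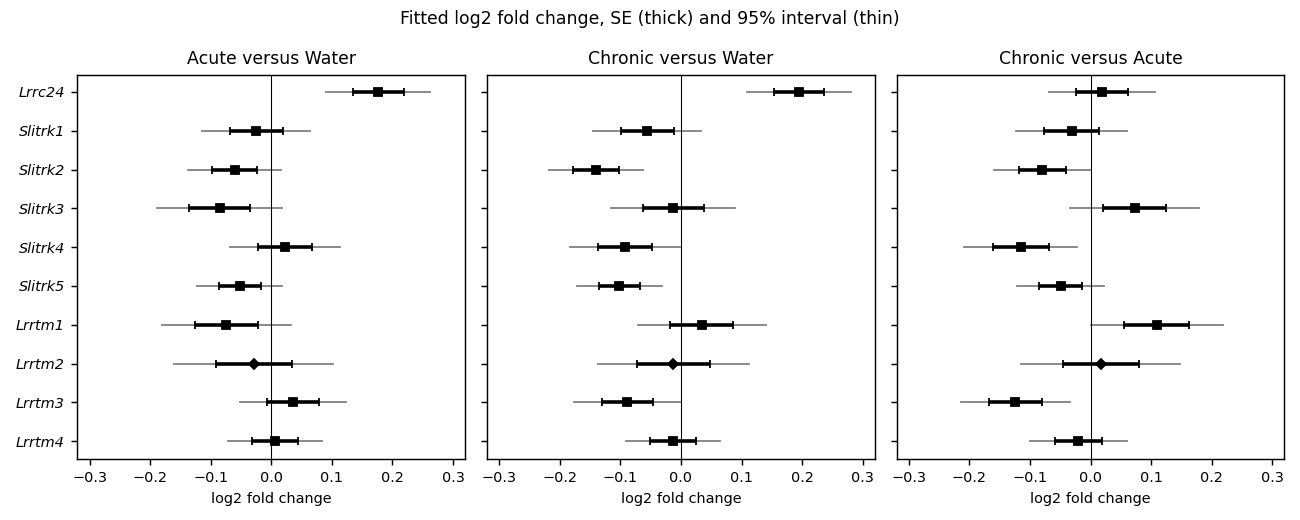
Log2 fold change of each member in the 3 comparisons, with SE (thick) and 95% interval (thin). *Lrrtm2* (diamond) is from the second batch alone. *Lrrc24* lies at 0.18 and 0.20 against Water, and *Slitrk2* at -0.14 in Chronic versus Water.

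*Lrrc24* had the highest positive fold changes of the members against Water, and missed the threshold. It ranged from 23.4 to 28.9 CPM (median 25.3) in the 10 Water mice, from 24.7 to 30.6 (median 29.4) in the 9 Acute mice and from 27.2 to 31.5 (median 29.3) in the 9 Chronic mice. All 9 Chronic mice and 8 of 9 Acute mice lay above the Water mean, and 6 Chronic and 7 Acute mice lay above every Water mouse, so the groups overlapped through a few mice. The log2 fold change was 0.18 ± 0.042 (SE) in Acute versus Water, 13.0% higher (adjusted p = 0.194), and 0.20 ± 0.042 in Chronic versus Water, 14.5% higher (adjusted p = 0.157). Regrouping the mice within batches in every way gave exact two-sided p = 0.00241 and 0.000433 for this gene alone, unadjusted, where 3.09e-05 is the smallest that 32340 regroupings allow. The study had named *Lrrc24* from these same mice, so these p-values give no independent support. Chronic and Acute mice differed by 0.02 ± 0.043 (95% interval -0.07 to 0.11).

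The difference in *Lrrc24* was larger in the first batch. There the 4 Water mice had 416 to 458 normalized counts, the 4 Acute mice 512 to 546 and the 3 Chronic mice 521 to 562, and the Water mice did not overlap either group. In the second batch the 6 Water mice had 550 to 655, the 5 Acute mice 559 to 683 and the 6 Chronic mice 618 to 688, and all 3 groups overlapped. The log2 fold change was 0.27 and 0.11 in Acute versus Water and 0.32 and 0.12 in Chronic versus Water, first and second batch in turn. The test of that batch difference had unadjusted p = 0.0418 and 0.0219 and adjusted p = 0.999 and 0.774 by edgeR, beside 0% and 0.00615% of all genes called by it.

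*Lrrc14*, which shares the last exon, had log2 fold changes of 0.07 ± 0.048 in Acute versus Water (adjusted p = 0.642) and 0.03 ± 0.048 in Chronic versus Water (adjusted p = 0.891). These values joined batches of opposite sign, at -0.03 and 0.15 in Acute versus Water and -0.12 and 0.11 in Chronic versus Water, first and second batch in turn. The test of that batch difference had unadjusted p = 0.0534 and 0.0192 and adjusted p = 0.999 and 0.774 by edgeR. The share of *Lrrc24* in the counts of the pair was 46.8% ± 2.34 in the Water mice of the first batch (SD, n = 4) and 52.2% ± 3.08 and 54.3% ± 1.24 in its Acute and Chronic mice. In the second batch it was 54.7% ± 2.68, 53.9% ± 1.48 and 54.8% ± 1.80, with overlapping ranges. With both genes counted as 1, the log2 fold change was 0.12 ± 0.029 in Acute versus Water and 0.11 ± 0.029 in Chronic versus Water (adjusted p = 0.194 and 0.184). *C030006K11Rik* had 0.10 ± 0.068 and 0.19 ± 0.067 (adjusted p = 0.637 and 0.290). How reads were shared between these genes was not tested.

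*Lrrc24* is also rich in G and C, at 59.0% of its exonic bases. In Chronic versus Water the median log2 fold change was 0.05 over the 3750 genes tested with at least 55% GC and -0.05 over the 1708 genes under 42%. When GC and length trends of every mouse were taken out by offsets, *Lrrc24* had a log2 fold change of 0.13 in Chronic versus Water and 0.14 in Acute versus Water (adjusted p = 0.642 and 0.540).

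*Slitrk2*, an X-linked member of the Slitrk family, had the lowest fold change of the members in Chronic versus Water. It ranged from 34.2 to 41.8 CPM (median 39.0) in Water, from 35.1 to 40.7 (median 36.6) in Acute and from 33.2 to 36.6 (median 35.2) in Chronic mice. All 9 Chronic mice lay below the Water mean and 3 below every Water mouse, while 3 Water mice lay below the highest Chronic mouse, so the ranges overlapped. The log2 fold change was -0.14 ± 0.038 in Chronic versus Water, 95% interval -0.22 to -0.06 (adjusted p = 0.192), with an exact p of 0.00337 for this gene alone. The study had named *Slitrk2* too from these mice, so that exact p gives no independent support. The first and second batch gave -0.10 and -0.16. Acute versus Water gave -0.06 ± 0.038 (adjusted p = 0.621), and Chronic versus Acute gave -0.08 ± 0.039 (adjusted p = 0.998). The gene has 40.5% GC, and with the GC and length offsets its fold change was -0.08 in Chronic versus Water (adjusted p = 0.740) and -0.015 in Acute versus Water (adjusted p = 0.948).

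*Slitrk5*, which in mice is known for a role in striatal circuits and grooming, ranged from 90.2 to 98.2 CPM (median 93.7) in Water, from 83.3 to 100.8 (median 90.4) in Acute and from 78.3 to 94.1 (median 88.2) in Chronic mice. Of the 9 Chronic mice, 8 lay below the Water mean and 5 below every Water mouse. The log2 fold change in Chronic versus Water was -0.10 ± 0.034 (adjusted p = 0.272, exact p = 0.00213 for this gene alone), at -0.14 and -0.09 in the first and second batch. The offsets left it at -0.11 (adjusted p = 0.642).

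*Slitrk4*, the other X-linked Slitrk gene here, ranged from 50.2 to 64.6 CPM (median 54.8) in Water, from 53.9 to 59.2 (median 56.7) in Acute and from 47.2 to 57.4 (median 51.1) in Chronic mice. Its log2 fold change was -0.11 ± 0.046 in Chronic versus Acute (adjusted p = 0.998) and -0.09 ± 0.044 in Chronic versus Water (adjusted p = 0.470). The latter stood at 0.0032 and -0.15 in the first and second batch. With 37.0% GC it has the lowest GC content of the members, and the offsets moved the fold change in Chronic versus Water to -0.02. In Acute versus Water they moved it from 0.02 ± 0.044 to 0.09 (adjusted p = 0.592).

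*Slitrk1*, linked in human genetics to Tourette syndrome, and *Slitrk3*, known for inducing inhibitory synapses, had no comparison with an unadjusted p under 0.05. *Slitrk1* ranged from 95.4 to 114.5 CPM in Water, 92.6 to 113.6 in Acute and 93.3 to 115.9 in Chronic mice, with log2 fold changes of -0.02 ± 0.044 and -0.06 ± 0.044 against Water. *Slitrk3* ranged from 64.4 to 78.8, 57.7 to 72.8 and 61.2 to 77.9 CPM, with fold changes of -0.09 ± 0.050 in Acute and -0.01 ± 0.050 in Chronic mice. The first of these was the lowest of the 9 members in Acute versus Water. Adjusted p-values of these 4 comparisons lay between 0.595 and 0.953. All 5 Slitrk genes had a negative fold change in Chronic versus Water, with a median of -0.09, beside 49.0% of all genes and a median of 0.0022. With the GC and length offsets that median was -0.03 and 4 of the 5 were negative. That sign did not hold for *Slitrk3* under some settings given in the closing section, or for *Slitrk4* in the first batch.

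**Figure D4:**
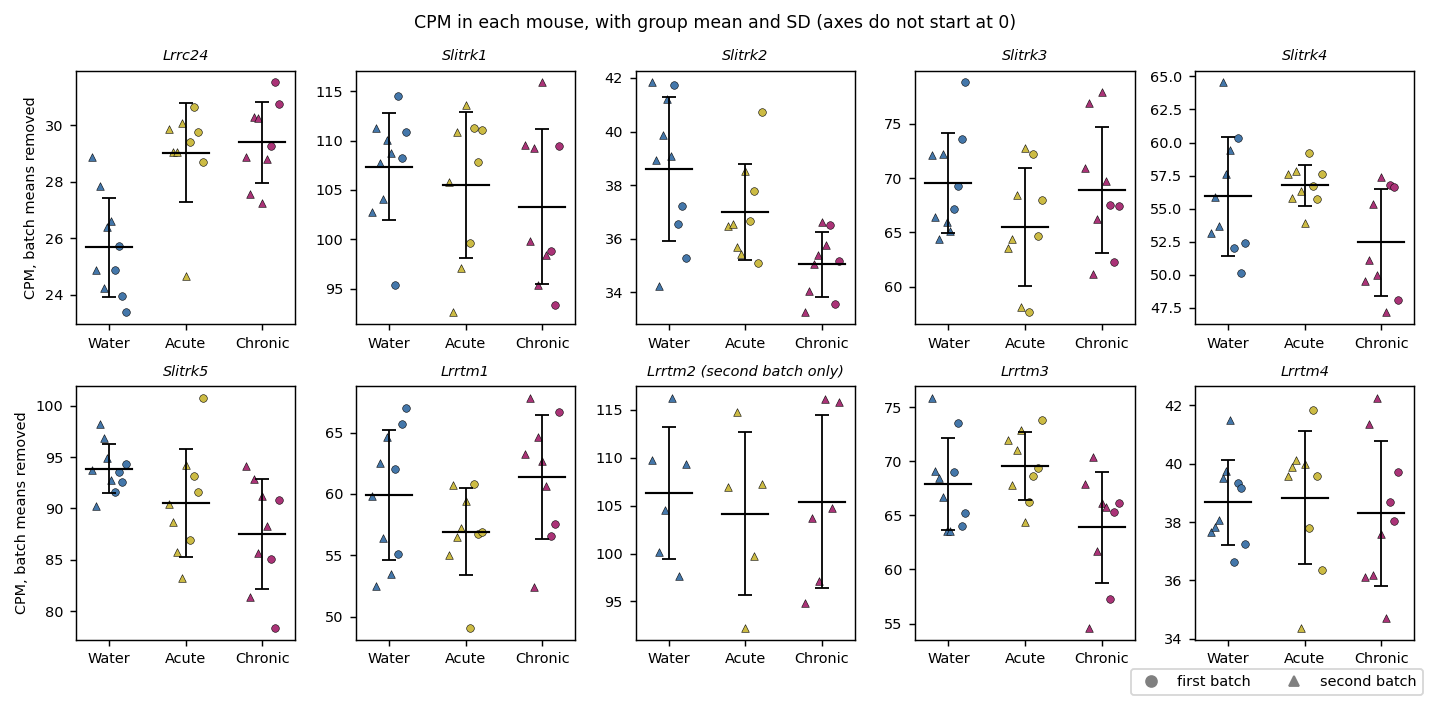
CPM of each member in each mouse, with the batch difference removed (circles first batch, triangles second batch), with group mean and SD. In *Lrrc24* 7 of 9 Acute and 6 of 9 Chronic mice lie above every Water mouse, and in *Slitrk2* the 9 Chronic mice lie between 33.2 and 36.6 CPM.

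*Lrrtm3*, a neurexin-binding member, ranged from 63.5 to 75.8 CPM (median 67.6) in Water, from 64.4 to 73.8 (median 69.4) in Acute and from 54.6 to 70.4 (median 65.7) in Chronic mice. Its log2 fold change was -0.12 ± 0.044 in Chronic versus Acute (adjusted p = 0.998), with 8 of 9 Chronic mice below the Acute mean and values of -0.14 and -0.11 in the first and second batch. It was -0.09 ± 0.043 in Chronic versus Water (adjusted p = 0.474). *Lrrtm1* ranged from 52.5 to 67.0, 49.1 to 60.8 and 52.4 to 67.8 CPM in Water, Acute and Chronic mice, and its fold change of 0.11 ± 0.053 in Chronic versus Acute was opposite in sign (adjusted p = 0.998). *Lrrtm4*, the glypican-binding member, had fold changes of 0.0065 ± 0.038 and -0.01 ± 0.038 against Water, with overlapping ranges in all 3 groups. *Lrrtm2*, in the 17 mice of the second batch, ranged from 97.7 to 116.3 CPM in Water, 92.2 to 114.8 in Acute and 94.9 to 116.1 in Chronic mice, with fold changes of -0.03 ± 0.063 and -0.01 ± 0.060 (adjusted p = 0.970 and 0.952 over 16435 genes, of which 0% and 0.0243% were called).

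The calls depended on the method for *Lrrc24* and *Slitrk2* and for no other member among the settings tried. *Lrrc24* passed the threshold in Chronic versus Water with DESeq2 (0.19, adjusted p = 0.0196) and after ComBat-seq (0.21, adjusted p = 0.000842), and in Acute versus Water after ComBat-seq (0.19, adjusted p = 0.0164). *Slitrk2* passed it in Chronic versus Water after ComBat-seq (-0.15, adjusted p = 0.0364). Leaving out Water mouse 1, the highest Water mouse for *Lrrc24*, brought that gene past the threshold in Chronic versus Water by edgeR (0.22, adjusted p = 0.0474).

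**Figure D5:**
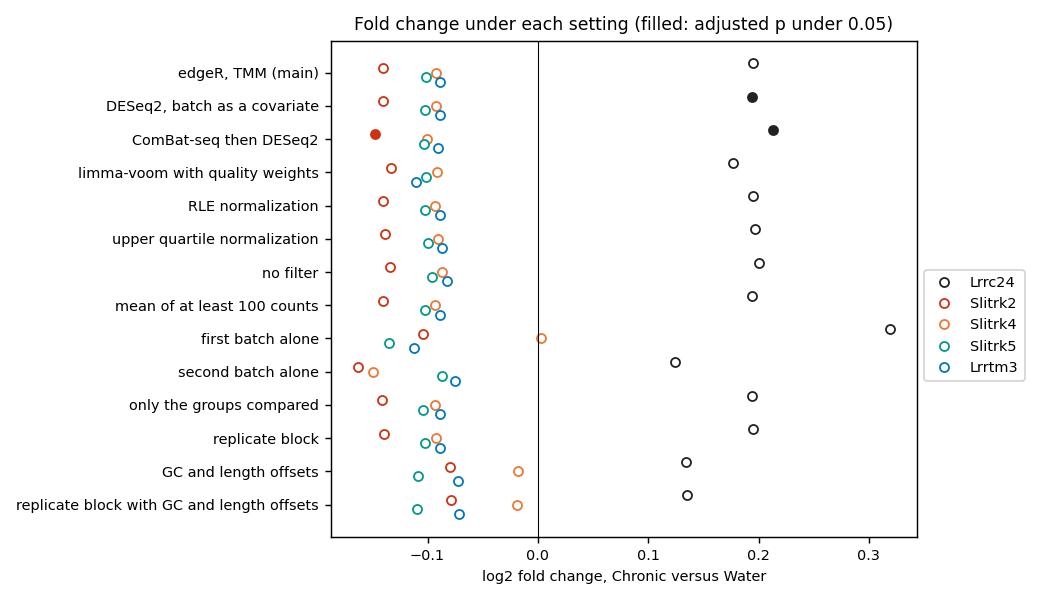
Log2 fold change in Chronic versus Water of 5 members under each setting, with filled points at an adjusted p under 0.05. *Lrrc24* stays above 0 throughout and is filled for DESeq2 and ComBat-seq, *Slitrk2* is filled for ComBat-seq, and *Slitrk4* moves to -0.02 with the GC and length offsets.

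Some members varied among mice together with lists of cell type or region markers, in relations added after the values had been seen. Each member was related to the mean log2 CPM of 12 marker lists over the 28 mice with batch means removed, 108 relations in all, by permuting the mice within batches 100000 times. Group means were not removed, so differences between the drinking groups are part of these relations and give no separate support for them. Of the 108 relations, 9 had an adjusted p under 0.05 by both Pearson and Spearman, 4 of them with *Slitrk3*, 4 with *Lrrtm1* and 1 with *Lrrtm3*. *Slitrk3* was lower where the 6 inhibitory neuron markers were higher, with Pearson's r = -0.86 (permutation p = 1e-05, the smallest possible, adjusted 0.00054) and Spearman's rho = -0.81 (permutation p = 2e-05, adjusted 0.00216). The correlation was -0.80 without the 2 mice farthest from the median of the marker score, and -0.90 and -0.85 within the first and second batch. *Lrrtm1* showed r = -0.75 (permutation p = 1e-05, adjusted 0.00054) and rho = -0.71 (permutation p = 9e-05, adjusted 0.00324) with the same markers, -0.67 without the 2 farthest mice and -0.83 and -0.67 within the batches. The inhibitory markers were 0.14 higher on the log2 scale in Acute than in Water mice and 0.11 lower in Chronic than in Acute mice. *Slitrk3* and *Lrrtm1* had values opposite in sign, at -0.09 and -0.07 in Acute versus Water and 0.07 and 0.11 in Chronic versus Acute. In Acute versus Water the first and second batch gave -0.14 and -0.05 for *Slitrk3* and -0.16 and -0.012 for *Lrrtm1*, and leaving out Acute mouse 33, the lowest for *Lrrtm1*, moved that gene to -0.048. In Chronic versus Acute they gave 0.0040 and 0.11 for *Slitrk3* and 0.11 and 0.10 for *Lrrtm1*. The summed level of the 6 markers, none at 0 in any mouse, ranged from 1166 to 1730 CPM in Water, 1394 to 1985 in Acute and 1340 to 1876 in Chronic mice, and the part of these markers in the differences of both genes was not tested.

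The 6 other relations that passed by both measures were as follows. *Slitrk3* was higher with the 9 excitatory neuron markers (r = 0.76, rho = 0.63, adjusted permutation p = 0.00072 and 0.011, r = 0.61 without the 2 farthest mice). It was lower with the 5 central amygdala markers (r = -0.72, rho = -0.64, adjusted permutation p = 0.00081 and 0.011, r = -0.61 without the 2 farthest) and with the oligodendrocyte markers (r = -0.71, rho = -0.63, adjusted permutation p = 0.00194 and 0.0115, r = -0.56 without them). *Lrrtm1* was higher with the excitatory neuron markers (r = 0.62, rho = 0.61, adjusted permutation p = 0.0091 and 0.0131, r = 0.55 without the 2 farthest). It was lower with the oligodendrocyte markers (r = -0.70, rho = -0.60, adjusted permutation p = 0.00288 and 0.0175, r = -0.56 without them) and the striatal markers (r = -0.61, rho = -0.53, adjusted permutation p = 0.0146 and 0.0444, r = -0.51 without them). Each of these 6 relations kept its sign within both batches. The mean log2 score differed, in Acute versus Water and Chronic versus Acute in turn, by -0.12 and 0.11 for the excitatory neuron markers, 0.23 and -0.18 for the central amygdala markers, 0.10 and -0.04 for the oligodendrocyte markers and 0.22 and -0.45 for the striatal markers. The part of these lists in the differences of *Slitrk3* and *Lrrtm1* was not tested.

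*Lrrtm3* moved with the 8 striatal markers, with r = 0.54 (permutation p = 0.00273, adjusted 0.0268), rho = 0.71 (permutation p = 4e-05, adjusted 0.00216), 0.58 without the 2 farthest mice, and 0.45 and 0.64 within the batches. The same markers were 0.45 lower on the log2 scale in Chronic than in Acute mice and 0.23 lower in Chronic than in Water mice. *Lrrtm3* was lower in both comparisons. In Acute versus Water the markers were 0.22 higher, where *Lrrtm3* had 0.04 ± 0.043. The summed level of the markers ranged from 651 to 1700 CPM in Chronic, 915 to 1890 in Acute and 486 to 1888 in Water mice, with none at 0 in any mouse. The part of these markers in the differences of *Lrrtm3* was not tested. *Lrrc24* and *Slitrk2* had no relation with an adjusted p under 0.05 by both measures. *Lrrc24* passed by Spearman alone with the 5 central amygdala markers (rho = 0.55, permutation p = 0.00397, adjusted 0.0429; r = 0.43, permutation p = 0.0274, adjusted 0.156; r = 0.36 without the 2 farthest mice, and 0.67 and 0.21 within the batches). With the 6 inhibitory neuron markers it had r = 0.50 (permutation p = 0.0134, adjusted 0.0976) and rho = 0.47 (permutation p = 0.0166, adjusted 0.103), with r = 0.37 without the 2 farthest mice and 0.63 and 0.30 within the batches. In Acute versus Water the scores of both lists had differences of the same sign as *Lrrc24*, at 0.23 and 0.14 on the log2 scale. In Chronic versus Water, where *Lrrc24* had its larger fold change, they stood at 0.05 and 0.03, and in Chronic versus Acute at -0.18 and -0.11, opposite in sign to the 0.02 of *Lrrc24*. The central amygdala markers summed to 82.1 to 119.7 CPM in Water, 81.0 to 156.1 in Acute and 64.0 to 125.4 in Chronic mice, and the part of either list in the difference of *Lrrc24* was not tested. With the oligodendrocyte, microglia and choroid plexus markers *Lrrc24* had r = 0.44, 0.38 and -0.34 (adjusted permutation p = 0.171, 0.16 and 0.177). *Lrrtm3* also passed by Spearman alone with the microglia markers (rho = 0.56, adjusted permutation p = 0.029). So did *Lrrtm1* with the general neuron markers (rho = 0.53, adjusted permutation p = 0.0465). Among the members themselves, the 36 correlations with group and batch means removed ran from -0.57 (*Slitrk4* with *Lrrtm1*) to 0.58 (*Slitrk1* with *Slitrk5*), with a median of 0.03, as a description over 28 mice that share libraries.

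The genes whose pattern over the 28 mice was most like that of *Lrrc24*, by Pearson's r of log2 CPM with batch means removed among 11722 genes averaging 100 counts or more, were *Aurkaip1* (r = 0.77), *Ifitm10* (0.76), *Pcsk1n* (0.75), *Hcn2* (0.75) and *Cltb* (0.74). *Lrrc14* had r = -0.04. With group means removed as well, *Aurkaip1* alone stayed among the nearest 5. Those most like *Slitrk2* were *Flrt2* (0.71), itself a leucine-rich-repeat adhesion gene, *March7* (0.70), *Ints2* (0.68), *Kdm6a* (0.68) and *Zfyve16* (0.68), of which *Ints2* stayed among the nearest 5 with group means removed.

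The partners and relatives of the members were followed as lists, and none of their genes was called in any comparison. Among 13 listed partners (neurexins, receptor phosphatases, glypicans and calsyntenins), 2 had an unadjusted p under 0.05 and were higher in Acute versus Water and 0 were lower, beside 5.07% and 4.45% of all genes. In Chronic versus Water 2 were higher and 1 lower, beside 4.81% and 5.65%. The calsyntenin *Clstn3* was among those higher in both comparisons, and the gene lower in Chronic versus Water was the calsyntenin *Clstn2*. *Gpc5*, a glypican, had 0.11 ± 0.038 in Acute versus Water (adjusted p = 0.430), and *Nrxn2*, a neurexin, had 0.08 ± 0.029 in Chronic versus Water (adjusted p = 0.290). Of the 10 postsynaptic scaffold genes, 0 passed that level in Acute and 1 in Chronic versus Water, and all 10 values in Chronic versus Water lay between -0.09 and 0.04. Of 24 other leucine-rich-repeat adhesion genes tested, 3 were higher and 1 lower at that level in Chronic versus Water, led by *Flrt2* at -0.19 ± 0.060 and *Lrrc4b*, a netrin-G ligand family member, at 0.11 ± 0.034 (adjusted p = 0.241 for both). The median over these 24 was 0.05, beside 0.0022 for all genes and 0.05 for all genes tested with at least 55% GC. In Acute versus Water it was 0.0086, beside 0.0011 for all genes, with 1 gene higher and 0 lower at that level. The part of GC content in the median of this list was not tested. Of 9 partners of those adhesion genes, 0 were higher and 2 lower at that level in Acute versus Water, and 0 and 1 in Chronic versus Water. Of 7 neuroligins and other genes that share ligands with the members, 0 were higher and 1 lower in each of these comparisons. The remaining Slitrk gene, *Slitrk6*, had 0.20 ± 0.242 in Acute versus Water (adjusted p = 0.829) and -0.12 ± 0.247 in Chronic versus Water (adjusted p = 0.904).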

How the data were processed

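Paired-end RNA-seq libraries were made from the amygdala of 28 mice, in 2 batches. The authors quantified reads with Salmon (version 0.14.1, after FastQC 0.11.8, per the submitters' processing notes) on the GRCm38 build, brought the estimates to gene level and deposited whole-number counts, without normalization, in a table for each batch. The study left out 1 mouse per batch. No column was left unmapped (0). The tables list 50051 and 51073 genes, joined on the identifier without its version.

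Counts were normalized by TMM in edgeR 4.0.16 (R 4.3.3), with a minimum mean of 10 counts, and log2 CPM used a prior count of 2. The quasi-likelihood test took batch as a covariate over 3 groups, and *Lrrtm2* was fitted within the second batch. Standard errors come from the F statistic, and 95% intervals from its degrees of freedom. Alternatives were DESeq2 1.42.0, ComBat-seq (sva 3.50.0) then DESeq2, limma-voom 3.58.1, other normalizations and filters, single batches, only the groups compared, a replicate block, GC and length offsets, and leaving out each mouse. Counting *Lrrc24* and *Lrrc14* as 1 gene was added after the values were seen. The edgeR, DESeq2 and limma-voom tests were also run on simulated counts with changes set in the Chronic mice, and the outcome is not given here. None of 55 same-group pairs of mice within a batch held duplicate libraries. Labels do not say more on replicates than that each is a mouse, so p-values measure the spread between mice.

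The members and lists were chosen with earlier results of these data known. Among the members, *Lrrc24* and *Slitrk2* had been named by the study from these same mice. All members were named, with list genes at an unadjusted p under 0.01 against Water (at most 3 per list) and the 5 genes nearest to *Lrrc24* and to *Slitrk2*. *Slitrk6*, the genes overlapping members, and the marker relations described were named after their values were seen.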

Additional observations from a re-analysis of the deposited data

Results flagged for a closer look

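In 30 groups of member values, Dixon's gap test singled out 2 mice, and chance flags about 1 in 20 groups. In *Lrrc24*, Acute mouse 5 stood apart at 24.7 CPM, with a gap of 0.701 of the range of the 9 Acute mice, where 0.493 is the limit. The other 8 Acute mice lay above the Water mean. Without it the log2 fold change of *Lrrc24* was 0.21 in Acute versus Water (adjusted p = 0.0555 by edgeR, beside 0.194 with all mice) and 0.19 in Chronic versus Water (adjusted p = 0.0555, beside 0.157). In *Lrrtm1*, Acute mouse 33 stood apart at 49.1 CPM, with a gap of 0.532 of the range. Without it the log2 fold change in Acute versus Water was -0.048, beside -0.07 with all mice.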

How the results depend on the processing

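Over the alternatives the 3 comparisons kept 0 called members by edgeR except as given here. In Acute versus Water, all genes called numbered 9 with DESeq2, 30 after ComBat-seq, 3 with limma-voom and 1 without a filter, and members called were 1 after ComBat-seq. In Chronic versus Water they numbered 38 with DESeq2, 88 after ComBat-seq, 0 in the first batch alone and 1 with the GC and length offsets, with or without the replicate block, and members called were 1 with DESeq2 and 2 after ComBat-seq. In Chronic versus Acute, 1 gene was called with limma-voom and 1 without a filter. Leaving out each mouse in turn gave 0 to 2 genes called in Acute versus Water (1 without Acute mouse 34, 2 without Chronic mouse 38), and 2 to 6 genes in Chronic versus Water (6 without Water mouse 3), with 0 to 1 members (1 without Water mouse 1).

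Members with small fold changes turned in sign. In Acute versus Water, *Slitrk1* was 0.00094 in the first batch alone, and *Slitrk4* -0.029 and *Lrrtm4* -0.012 in the second batch alone. In Chronic versus Water, the first batch alone gave *Slitrk4* 0.0032, *Lrrtm1* -0.053 and *Lrrtm4* 0.026, and the second batch alone gave *Slitrk3* 0.058. The offsets gave *Slitrk3* 0.0051, *Lrrtm1* -0.0072 and *Lrrtm4* 0.032, and with the replicate block added 0.0031, -0.0081 and 0.030. Limma-voom gave *Slitrk3* 0.0055. In Chronic versus Acute, the second batch alone gave *Slitrk1* 0.012 and *Slitrk5* 0.0092, and *Lrrc24* was -0.0082 with the offsets, -0.014 with the block and offsets and -0.011 counted together with *Lrrc14*, while *Lrrtm4* was 0.0011 with the block and offsets. *Lrrtm2* was 0.032 (Acute versus Water) and 0.069 (Chronic versus Water) with the offsets, 0.043 and 0.066 with the block added, 0.018 in Chronic versus Water with limma-voom, and -0.0035 in Chronic versus Acute with the replicate block.

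Leaving out single mice moved *Lrrtm4* between -0.0083 and 0.027 in Acute and between -0.032 and 0.0028 in Chronic versus Water, *Slitrk3* between -0.036 and 0.0087 in Chronic versus Water, and *Lrrc24* between -0.011 and 0.033 in Chronic versus Acute. *Lrrtm2* lay between -0.066 and 0.012, between -0.038 and 0.016, and between -0.024 and 0.057 in the 3 comparisons. Without single mice, *Slitrk1* lay between -0.047 and -0.0035 and *Slitrk4* between 0.0043 and 0.047 in Acute versus Water, with no change of sign. The causes were not tested.

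Replicate numbers of the second batch recur in the groups, but same-numbered mice did not deviate together (16 pairs, correlations from -0.35 to 0.34), so the numbers were not taken to pair mice. With the replicate block, 0 genes were called in Acute versus Water, 3 in Chronic versus Water and 0 in Chronic versus Acute, and 5 of 32 best matches were with the own number. Depth limits the members with fewest counts most. Counting error alone would give an SD of 0.060 on the log2 scale for *Lrrc24* at its mean of 577 counts, beside 0.081 observed within group and batch, and 0.052 beside 0.080 for *Slitrk2*, against 0.031 beside 0.0997 for *Slitrk1* at 2179 counts.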
